A study of Mus musculus with 4 samples.

Results

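DNA transposons move by a cut-and-paste mechanism, in which a transposase encoded by a complete copy recognises the terminal inverted repeats and excises the element. In the mouse the families described here are regarded as inactive fossils, whose copies are mostly short internally deleted remnants inside introns and between genes. Read starts in them therefore mark RNA that begins in, or was cut within, old element sequence. The 7 families are MER1_type, AcHobo, hAT, Tigger, Mariner, Tc2 and DNA, chosen by name from the 47 repeat families of the deposited count table. 3 of them belong to the hAT superfamily (MER1_type, which holds the Charlie and MER elements, AcHobo and hAT). The other 3 with a superfamily belong to Tc1/mariner (Tigger, Mariner and Tc2), and DNA collects elements with no superfamily given. 8 more families of the table also name DNA transposons (MER2_type, Tip100, MuDR, TcMar, TcMar?, MER1_type?, Helitron and Helitron?) and are used only for comparison. In older repeat nomenclature Tigger-like elements are also filed under MER2_type, so the family named Tigger need not hold all of them.

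RNA 5′ ends were measured by nanoCAGE, which selects capped ends from small amounts of total RNA, in oocytes and embryos of F1 (C57BL/6J X CBA/H) crosses. The stages were the fully grown oocyte, the 2-cell embryo at 48 h, the 8-cell embryo at 68 h and the blastocyst at 92 h. Each stage is 1 sample read in 3 runs, numbered 1.1, 1.2 and 2, except the 2-cell embryo, which has runs 1 and 2. The labels do not say whether the runs of a stage come from separate pools of embryos. Runs were treated as repeat reads of a sample and not as replicates, so that stage means carry no SD or SE. No p-value is given, and exact 95% (Clopper-Pearson) intervals cover counting error only. The table counts no genes, so the stage labels could not be set against marker genes.

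A share is the percent of a run's counts over the 47 families, and a stage's share averages its runs, each weighted alike. Run totals lay between 36922 counts (blastocyst run 1.2) and 1919263 (oocyte run 1.2), where a count of 3 corresponds to 0.00813% and 0.000156%. The 34 LINE, SINE, LTR and DNA transposon families, called the transposon families here, took 37.9% to 95.1% of a run. A share of all counts thus also moves with ribosomal RNA, which took 0.807% to 44.9%, and shares of the transposon families are given beside it. In bulk samples a lower share cannot be told apart from less RNA per cell, fewer transcribing cells or more RNA from other repeats. Oocyte run 1.1 stood apart, with 44.9% ribosomal RNA and the lowest summed share of the 7 families, and results that rest on it are given with and without it.

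The 7 families together were a small part of the repeat counts at every stage, and the share was lowest in the oocyte. They held 1313, 18752 and 4879 counts in oocyte runs 1.1, 1.2 and 2, which were 0.233% (interval 0.221% to 0.246%), 0.977% (0.963% to 0.991%) and 1.29% (1.26% to 1.33%) of the run. The 2-cell runs had 2.32% and 1.54% (runs 1 and 2), from 5397 and 3778 counts. The 8-cell runs had 2.02%, 1.87% and 1.18% (runs 1.1, 1.2 and 2), from 985, 1498 and 14808 counts. The blastocyst runs had 2.45%, 0.905% and 1.74% in the same order, from 1016, 334 and 1632 counts. Both 2-cell runs lay above all oocyte runs, while the 8-cell and blastocyst runs overlapped with the oocyte runs. The highest run of a stage exceeded the lowest 5.54-fold in the oocyte, 1.51-fold in the 2-cell embryo, 1.71-fold in the 8-cell embryo and 2.70-fold in the blastocyst. The intervals of 9 of the 10 pairs of runs from the same stage did not overlap, so that runs differed by more than counting error.

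**Figure D1:**
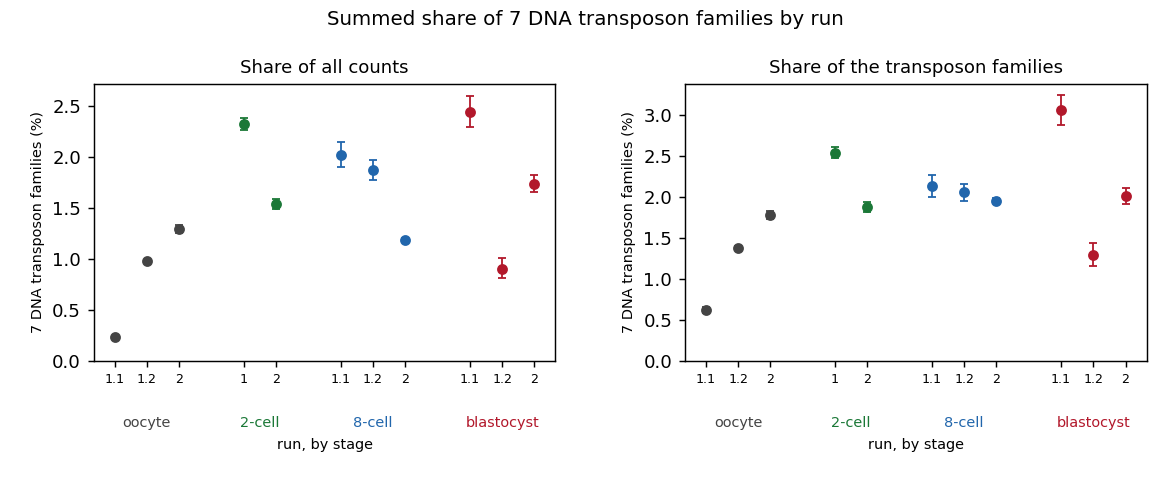
Summed share of the 7 DNA transposon families in each run, as percent of all counts (left) and of the counts of the 34 transposon families (right), with points for runs, bars for exact 95% intervals of counting error and runs grouped by stage. In the left panel the 2-cell runs (2.32% and 1.54%) lie above the 3 oocyte runs, and in the right panel the 8-cell runs draw together at 1.95% to 2.13%.

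Against the transposon families alone the runs drew closer together. The 7 families took 0.615%, 1.37% and 1.77% of transposon counts in oocyte runs 1.1, 1.2 and 2. The 2-cell embryo had 2.54% in run 1 and 1.87% in run 2. The 8-cell runs had 2.13%, 2.05% and 1.95%, while their ribosomal RNA differed from 0.807% to 26.5%. The blastocyst runs had 3.05%, 1.29% and 2.01%, and run 1.2 was the only one of the 8 embryo runs below the highest oocyte run. The stage means on this scale were 1.25%, 2.21%, 2.04% and 2.12% from oocyte to blastocyst.

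MER1_type made up nearly all of the signal, with 88.01% to 98.1% of the counts of the 7 families in every run and 92.2% of the 54392 counts over all runs. Its elements are hAT remnants of the Charlie group, among the most numerous DNA transposons of mammalian genomes. Its share of all counts was 0.212%, 0.860% and 1.14% in oocyte runs 1.1, 1.2 and 2. The 2-cell embryo had 2.19% in run 1 and 1.41% in run 2. The 8-cell embryo had 1.90%, 1.78% and 1.16% in its runs (1.1, 1.2 and 2), and the blastocyst 2.17%, 0.807% and 1.61%. Both 2-cell runs lay above the oocyte runs, and the runs overlapped in the other 3 comparisons. Among the 34 transposon families MER1_type ranked from 8th to 12th by counts, and the other members ranked 15th or lower in every run.

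The 6 smaller families were thinly covered. AcHobo held 1538 counts over all 11 runs, hAT 1606, Tigger 448, Mariner 276, Tc2 254 and DNA 143. Every family had at least 1 count in every run. AcHobo had fewer than 10 counts in 1 run, hAT in 2, Mariner and Tc2 in 4 each, Tigger in 5 and DNA in 6. Differences between stages in Mariner, Tc2 and DNA therefore rest on few reads. Which loci gave the counts was not analysed here, since the read files name no repeat.

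**Figure D2:**
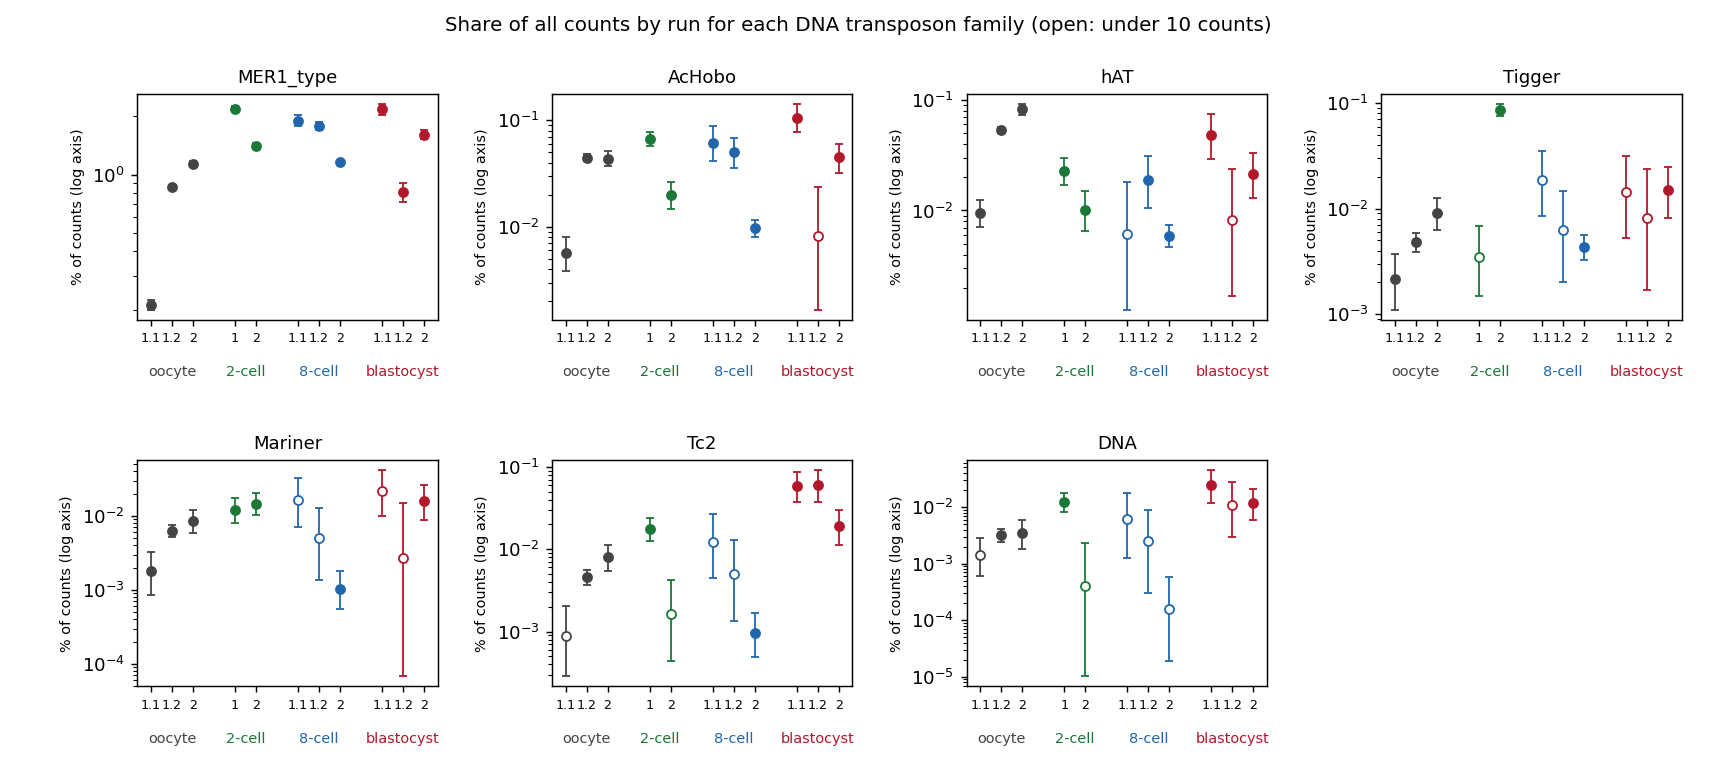
Share of all counts (percent, log axis) for each of the 7 families in each run, grouped by stage, with exact 95% intervals of counting error and open points for runs with under 10 counts. MER1_type lies near or above 1% in most runs, the other 6 families stay near or below 0.1%, and Tc2 is highest in the blastocyst runs.

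The comparison of 2-cell embryos with oocytes covers fertilisation and the onset of transcription in the embryo. A family was said to pass when stage means differed at least 2-fold and all runs of one stage lay on one side of all runs of the other. The 7 families together passed, with 1.93% in the 2-cell embryo and 0.834% in the oocyte, a ratio of 2.32. The ratio of counts pooled over runs was 2.20 (exact 95% interval 2.15 to 2.26). MER1_type passed at 1.80% in the 2-cell embryo against 0.736% in the oocyte, a ratio of 2.44. Mariner, the family named after the element first found in Drosophila, passed at 0.0134% in the 2-cell embryo (64 counts) against 0.00550% in the oocyte (162 counts), a ratio of 2.43. Its intervals in 2-cell run 1 (0.00801% to 0.0174%) and oocyte run 2 (0.00580% to 0.0120%) overlapped. MER1_type and Mariner, 2 of the 7 families, compare with 19 of all 47 families, or 40.4%, that passed in either direction. Of all families, 31.9% passed as higher at the 2-cell stage. The members' share is near that of the table as a whole.

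Among the transposon families alone none of the 7 passed in this step, where 23.5% of the 34 did. MER1_type then had 2.05% in the 2-cell embryo and 1.11% in the oocyte, a ratio of 1.85 with no overlap of runs. Without oocyte run 1.1 its ratio over all counts was 1.80, and without 2-cell run 1 it was 1.91, neither of which passed. The sum of the 7 gave 1.703 and 1.85 in the same order, below the 2-fold limit, and Mariner gave 1.81 without oocyte run 1.1. The stages shared no sequencing run, which therefore cannot be told apart from stage in this step. Adding the other 8 DNA transposon families left the ratio at 2.05 (2.65% in the 2-cell embryo and 1.29% in the oocyte). MER2_type had 0.565% in the 2-cell embryo and 0.354% in the oocyte, and Tip100 0.123% in the 2-cell embryo and 0.0943% in the oocyte, both with overlapping runs. Tc2 and DNA differed widely between the 2-cell runs, with 41 and 28 counts in run 1 against 4 and 1 in run 2.

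From the 2-cell to the 8-cell stage none of the 7 passed, where 10.6% of the 47 families did. The sum was 1.69% in the 8-cell embryo and 1.93% in the 2-cell embryo, a ratio of 0.876. MER1_type had 1.62% in the 8-cell embryo and 1.80% in the 2-cell embryo, and AcHobo 0.0404% in the 8-cell embryo and 0.0434% in the 2-cell embryo, with overlapping runs. By their read names, 8-cell run 2 and 2-cell run 2 came from the same sequencing run. There MER1_type had 1.16% of counts in the 8-cell run and 1.41% in the 2-cell run. On the scale of transposon families it had 1.91% in that 8-cell run and 1.71% in that 2-cell run, so its direction turned with the denominator. In the same pair Mariner had 13 counts of 1252133 in the 8-cell run and 36 of 245473 in the 2-cell run. Tc2 had 12 counts (0.000958%) in the 8-cell run and 4 (0.00163%) in the 2-cell run. 4 of the 7 families (AcHobo, Tigger, Mariner and DNA) were over 2-fold lower in that 8-cell run, DNA on only 2 counts against 1. The members' share is near the 55.3% of all families past 2-fold in either direction. With 1 run a stage there is no spread to set them against.

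From the 8-cell embryo to the blastocyst the sum had a ratio of 1.002, with 1.696% in the blastocyst and 1.692% in the 8-cell embryo. MER1_type had 1.53% in the blastocyst and 1.62% in the 8-cell embryo. 2 of the 7 passed, Tc2 and DNA, both higher in the blastocyst, against 12.8% of all 47 families in either direction and 8.51% higher. Tc2, a group of Tc1/mariner-like fossils, held 24, 22 and 18 counts in blastocyst runs 1.1, 1.2 and 2, against 6, 4 and 12 in 8-cell runs 1.1, 1.2 and 2, where totals were up to 1252133. Its share was 0.0578%, 0.0596% and 0.0192% in the blastocyst runs, against 0.0123%, 0.00500% and 0.000958% in the 8-cell runs. All blastocyst runs lay above all 8-cell runs, but the intervals of blastocyst run 2 (0.0114% to 0.0303%) and 8-cell run 1.1 (0.00452% to 0.0268%) overlapped. The ratio of the stage means was 7.47. It was 15.3 without 8-cell run 1.1 and 23.3 (14.2 to 39.7) with pooled counts, where the deepest 8-cell run weighs most. The ratio was lower than 7.47 without 8-cell run 2, the lowest of its stage, or without blastocyst run 1.2, the highest of its stage.

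The family DNA had 10, 4 and 11 counts in blastocyst runs 1.1, 1.2 and 2, against 3, 2 and 2 in the 8-cell runs. Its share was 0.0155% in the blastocyst and 0.00294% in the 8-cell embryo, a ratio of 5.29, which was 11.7 without 8-cell run 1.1. The ratio was lower than 5.29 without 8-cell run 2, the lowest of its stage, or without blastocyst run 1.1, the highest of its stage. With pooled counts it was 28.6 (12.03 to 78.3), where 8-cell run 2, with 2 counts of 1252133, weighs most. The intervals of the share in blastocyst run 1.2 (0.00295% to 0.0277%) and 8-cell run 1.1 (0.00127% to 0.0180%) overlapped. Both Tc2 and DNA held fewer than 100 counts over the 2 stages, and no member passed among families with at least 100, where 3 of the 30 such families did. These stages shared no sequencing run either.

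From the oocyte to the blastocyst the same 2 families, Tc2 and DNA, passed, against 34.0% of all 47 families in either direction and 27.7% higher. The members' share is near that of the table as a whole. Tc2 had 0.0455% in the blastocyst and 0.00447% in the oocyte, a ratio of 10.2, with oocyte runs at 5, 88 and 30 counts (runs 1.1, 1.2 and 2). The ratio was 16.6 without oocyte run 2, 9.10 among transposon families and 13.5 in the sequencing run shared by blastocyst run 1.2 and oocyte runs 1.1 and 2. It was lower than 10.2 without oocyte run 1.1, the oocyte run with the lowest Tc2 share. DNA had 0.0155% in the blastocyst and 0.00268% in the oocyte, a ratio of 5.80. Its ratio was 4.46 in the shared sequencing run, from 4 counts in blastocyst run 1.2 against 8 and 13 in oocyte runs 1.1 and 2. The sum of the 7 had 1.696% in the blastocyst and 0.834% in the oocyte, a ratio of 2.03 with overlapping runs. In the shared sequencing run its ratio was 1.19, from 0.905% in blastocyst run 1.2 against 0.233% and 1.29% in oocyte runs 1.1 and 2. Without blastocyst run 1.2 the sum passed with a ratio of 2.51, and 6 of the 7 families did, against 57.4% of all families. Both comparisons of the blastocyst use the same blastocyst runs, so that the calls of Tc2 and DNA in them are not independent.

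The make-up of the 7 families is computed without the counts of ribosomal RNA or other repeats, and MER1_type is most of its sum. In this make-up the oocyte runs lay apart in hAT. The family hAT is named after the elements hobo, Ac and Tam3. It took 0.982% and 0.662% of the counts of the 7 families in 2-cell runs 1 and 2, and 0.305%, 1.001% and 0.4997% in 8-cell runs 1.1, 1.2 and 2 (3, 15 and 74 counts). It took 1.97%, 0.898% and 1.23% in blastocyst runs 1.1, 1.2 and 2 (20, 3 and 20 counts). In oocytes it took 4.04%, 5.49% and 6.37% in runs 1.1, 1.2 and 2, from 53, 1029 and 311 counts. All 8 embryo runs lay below all oocyte runs, and oocyte run 1.1, which stood apart in the summed share, did so with an interval of 3.04% to 5.25%, above the interval of each embryo run (the highest reached 3.02%).

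In this make-up hAT was lower in the 2-cell embryo than in the oocyte, at 0.822% in the 2-cell embryo against 5.30% in the oocyte, a ratio of 0.155. It was also lower in the blastocyst, at 1.36% against 5.30% in the oocyte, a ratio of 0.257. Leaving out each run in turn moved these to between 0.125 and 0.185 and between 0.200 and 0.301, and all passed. Set against the sum of the same 7 families, 40.4% of the 47 families passed in the first comparison and 31.9% in the second. This separation was not particular to hAT. The LINE family CR1 was 24.7% to 32.4% of that sum in oocyte runs and 5.99% to 19.9% in embryo runs. The LINE family RTE was 8.07% to 15.7% of it in oocyte runs and 1.14% to 3.39% in embryo runs. As a share of all counts hAT had 0.0165% in the 2-cell embryo and 0.0485% in the oocyte, and did not pass, because oocyte run 1.1, at 0.00941%, lay below both 2-cell runs (0.0228% and 0.0102%). Without oocyte run 1.1 the ratio was 0.243, and hAT passed as lower in the 2-cell embryo, as did 51.1% of all families in either direction. With median-of-ratios size factors it passed at 0.245. Oocyte run 1.2 and 8-cell run 1.2 came from the same sequencing run. There hAT took 1.001% of the 7 families in the 8-cell embryo and 5.49% in the oocyte.

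AcHobo, a relative of hAT named after Activator and hobo, had overlapping runs between the stages. It took 2.44%, 4.56% and 3.38% of the 7 families in the oocyte (runs 1.1, 1.2 and 2). 2-cell run 1 had 2.87% and run 2 had 1.30%. The 8-cell embryo had 3.05%, 2.67% and 0.824%, and the blastocyst 4.33%, 0.898% and 2.57%, both in the run order of the oocyte. 2-cell run 2 and 8-cell run 2, which shared a sequencing run, were the lowest of their stages. AcHobo in blastocyst run 1.2 rests on 3 counts.

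**Figure D3:**
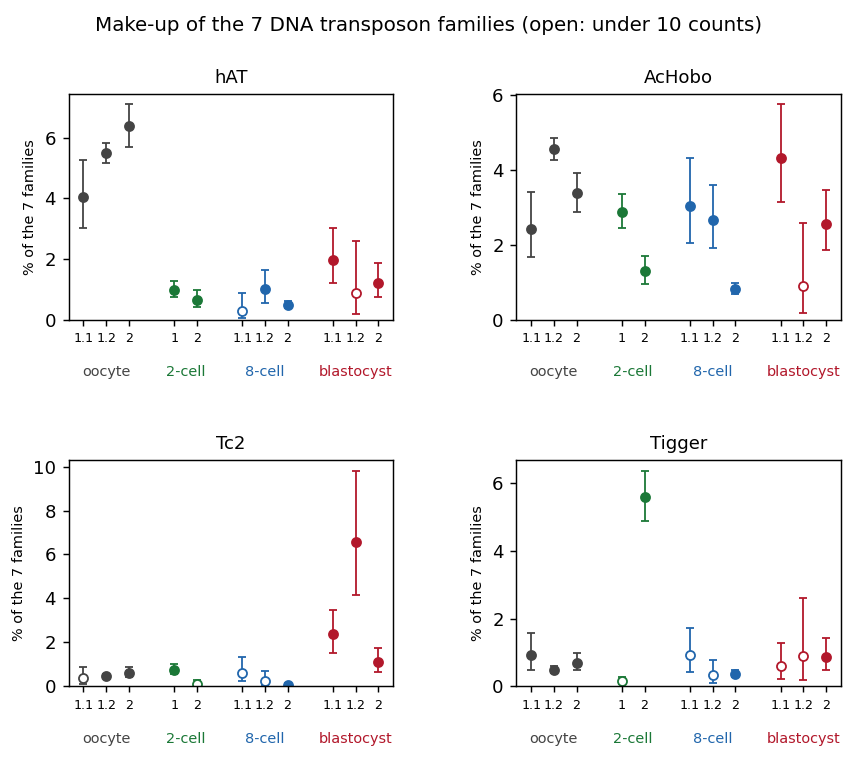
Share of hAT, AcHobo, Tc2 and Tigger in the counts of the 7 families (percent) for each run, grouped by stage, with exact 95% intervals and open points for runs with under 10 counts. hAT lies at 4.04% to 6.37% in the oocyte runs and at most 1.97% in the embryo runs, Tc2 is highest in the blastocyst runs, and Tigger is high in 2-cell run 2 alone.

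Tigger, a family of pogo-like Tc1/mariner elements, differed widely between the 2-cell runs. 2-cell run 2 held 211 counts and run 1 held 8, which were 0.0860% (interval 0.0748% to 0.0984%) and 0.00345% (0.00149% to 0.00679%) of the run. It took 5.58% of the 7 families in 2-cell run 2 and 0.148% in run 1. The other runs had between 3 and 92 counts, and 0.334% to 0.914% of the 7 families. The ratio of the 2-cell embryo to the oocyte was 8.42 with overlapping runs and rests on 2-cell run 2. Without that run the order of 8-cell and 2-cell embryo turned, with the 8-cell embryo 2.81-fold higher in place of a ratio of 0.217. 8-cell run 2, from the same sequencing run as 2-cell run 2, had 54 counts and 0.365%. As shares of all counts the 2-cell runs differed 24.9-fold in Tigger and 29.6-fold in DNA, and the 8-cell runs 38.6-fold in DNA, where the 2-cell embryo had 28 counts in run 1 and 1 in run 2 and no 8-cell run had more than 3.

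Mariner took 0.640% to 0.762% of the 7 families in the oocyte runs, which lay close together although their totals differed 5.08-fold. The value of 0.762%, in run 1.1, rests on 10 counts, with an interval of 0.366% to 1.40% that is wider than this range. 2-cell run 1 had 0.519% and run 2 had 0.953%. The 8-cell embryo had 0.812%, 0.267% and 0.0878% (8, 4 and 13 counts), and the blastocyst 0.886%, 0.299% and 0.919% (9, 1 and 15 counts). In make-up its runs overlapped between oocyte and 2-cell embryo. Tc2 took 2.36%, 6.59% and 1.103% of the 7 families in blastocyst runs 1.1, 1.2 and 2, and at most 0.760% in the other 8 runs. In this make-up the blastocyst exceeded the 8-cell embryo 10.5-fold and the oocyte 6.86-fold, and without blastocyst run 1.2 it did so 5.43-fold and 3.55-fold. Without 8-cell run 1.1 the ratio to the 8-cell embryo was 19.3. Set against the same sum, 12.8% of the 47 families passed between blastocyst and 8-cell embryo. DNA took 0.674% to 1.198% in the blastocyst runs (11 and 4 counts). Its highest run of the other stages had 0.305% in the 8-cell embryo (3 counts), 0.519% in the 2-cell embryo (28 counts) and 0.609% in the oocyte (8 counts).

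As superfamilies, the hAT group held 91.02% to 99.5% of the counts of the 7 families and the Tc1/mariner group 0.533% to 7.78%. These groups hold only members. MER2_type, under which Tigger-like elements are also filed, lies outside them and held 18524 counts over all runs. The Tc1/mariner group had 2.06%, 1.60% and 1.97% in the oocyte (runs 1.1, 1.2 and 2). The 2-cell embryo had 1.43% in run 1 and 6.64% in run 2, the run with 211 Tigger counts. The 8-cell embryo had 2.34%, 0.868% and 0.533%, and the blastocyst 3.84%, 7.78% and 2.88%. All blastocyst runs lay above all 8-cell and oocyte runs, and Tc2 was its largest family in each blastocyst run.

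MER1_type was set beside other old repeats by the ratio of counts in each run, which needs no total. MIR, an inactive SINE, and L2, an inactive LINE, are also fossils. MER1_type had 0.216, 0.805 and 1.01 counts per MIR count in oocyte runs 1.1, 1.2 and 2. The 2-cell embryo had 1.16 in run 1 and 1.24 in run 2, the 8-cell embryo 1.17, 1.40 and 1.02, and the blastocyst 1.28, 0.835 and 0.783. Apart from oocyte run 1.1 these ratios stayed between 0.783 and 1.40. Per L2 count it had 0.237, 1.74 and 2.21 in the oocyte, by run. The 2-cell embryo had 1.03 in run 1 and 0.717 in run 2, the 8-cell embryo 0.843, 0.670 and 0.955, and the blastocyst 1.23, 0.498 and 0.393. L2 over all counts was 3.21-fold higher in the 2-cell embryo and 3.92-fold higher in the blastocyst than in the oocyte, against 2.44-fold and 2.08-fold for MER1_type. MIR was 1.42-fold and 1.49-fold higher and did not pass. CR1 and RTE, other LINE families, had ratios below 1 in the same comparisons, with 0.905 and 0.829 for CR1 and 0.596 and 0.519 for RTE, all with overlapping runs. Against them MER1_type separated embryos from oocytes. It had 4.93 to 14.9 counts per CR1 count in the 8 embryo runs, against 2.80 to 3.57 in the oocyte runs. Per RTE count it had 27.0 to 86.0 in the embryo runs, against 5.61 to 11.3 in the oocyte runs. Whether MER1_type differs from these fossils between stages was not tested, as each stage is 1 sample.

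Likeness across runs was measured as the SD over the 11 runs of the log2 ratio of counts, where a small value means that 2 families kept a fixed ratio. It was computed against 23 other families with at least 10 counts in every run, and MER1_type was the only member with that many. The nearest were the rodent SINE families B2 (0.667), B4 (0.673) and ID (0.716), followed by MER2_type (0.725) and MIR (0.743). These values differ little from each other. They include oocyte run 1.1, the lowest run per B2, B4, MIR and MER2_type count, and were not computed without it. In the other runs MER1_type had 0.783 to 1.40 counts per MIR count, a narrower range than 0.169 to 0.552 per B2 count and 0.109 to 0.412 per B4 count. The order of nearness therefore need not hold without that run. The runs share 4 samples, so that the 11 points are not independent.

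**Figure D4:**
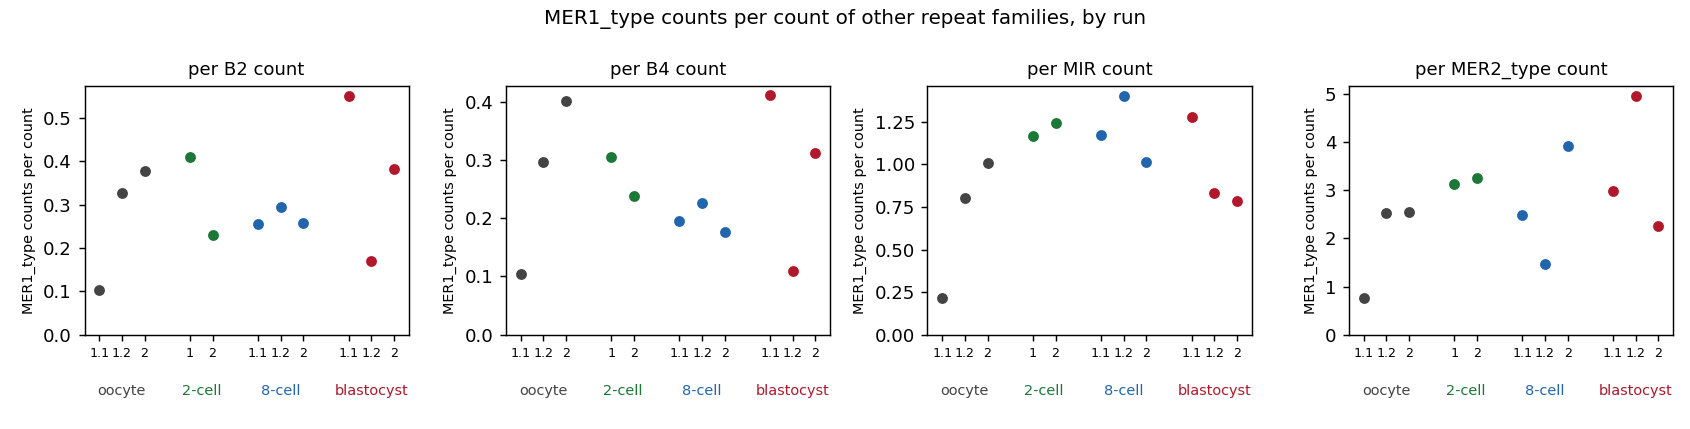
Counts of MER1_type per count of B2, B4, MIR and MER2_type in each run, grouped by stage, each on a linear axis from 0. Oocyte run 1.1 is the lowest in all 4 panels, and per MIR count the other runs lie between 0.783 and 1.40.

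MER2_type, the largest DNA transposon family outside the 7, held 18524 counts over all runs. MER1_type had 0.764 counts per MER2_type count in oocyte run 1.1 and 1.48 to 4.97 in the other runs, with no order of stages. Oocyte run 1.1 had the lowest ratio of all runs against MIR, L2, CR1 and MER2_type. Per RTE count its 11.3 lay above oocyte runs 1.2 (9.24) and 2 (5.61). The 7 families were 36.7% of the 15 DNA transposon families in that run and 57.8% to 78.4% in the others.

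Ribosomal RNA and placement scores moved with some of these values. The 8-cell run with the most ribosomal RNA (run 2, 26.5%) had the lowest summed share of its stage, as had 2-cell run 2 (12.8% against 4.53% in run 1), blastocyst run 1.2 (18.4%) and oocyte run 1.1 (44.9%). Median scores of the read placements, whose scale is not given in the sources used here, were 50, 53 and 35 in the oocyte (runs 1.1, 1.2 and 2). Scores were 24 in 2-cell run 1 and 43 in run 2, 16, 28 and 54 in the 8-cell embryo, and 16, 32 and 15 in the blastocyst. In the 2-cell, 8-cell and blastocyst samples the run with the highest median score had the lowest share of the 7 families. Depth took no fixed side, since the run with the lowest share was the deepest in the 8-cell (1252133 counts) and 2-cell embryo (245473), the shallowest in the blastocyst (36922) and the middle one in the oocyte (563012). The part of ribosomal RNA and the score in these differences was not tested, and the counts were not adjusted for it.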

How the data were processed

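NanoCAGE libraries of 4 stages were analysed from a table of read counts per repeat family and run (47 families, 11 runs) deposited by the authors, and from read files with a placement score per 25-base read, also deposited by the authors. The submitters' processing notes name the build mm9 and the tool CASAVA without saying what it did. Which aligner and repeat annotation were used, how multiply placed reads were handled and whether 1 read could add several counts is not given in the sources used here. Columns were matched to stages by name, and 0 columns were left unused. The score served only for medians per run. The sequencing run was inferred from a token in the read names and is not given by the sample labels.

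Counts were divided by run totals and averaged over runs with equal weight (Python 3.11.15, pandas 2.3.3, SciPy 1.17.1). The 34 transposon families were assigned by name from general knowledge. Members, lists and the rule were chosen with earlier results of these data known. All 7 members are named, shares with fewer than 10 counts are given with their counts, and the 3 families most like a member are named by likeness (2 more were added after the values were seen). Alternatives were other denominators, size factors, pooled counts, each run left out, shared sequencing runs, a filter of 100 counts, and limits of 1.5-fold and 3-fold. Exact intervals take counts as independent reads, and amplified reads without molecular identifiers are not.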

Additional observations from a re-analysis of the deposited data

How the results depend on the processing

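For the sum of the 7 families the 2-cell to oocyte ratio was 1.76 among transposon families and 1.66 with median-of-ratios size factors, so that it passed under neither. It ran from 1.703 (without oocyte run 1.1, not passed) to 3.19 when a run was left out, did not pass without 2-cell run 1 (1.85), and passed without rRNA (2.10) and with pooled counts (2.20). The number of members that passed in this step was 0 among transposon families and at a 3-fold limit, 1 with size factors and within the sum of the 7 families (added after seeing the data), and 1 to 5 with a run left out. Between 8-cell and 2-cell it was 0 to 4 with a run left out and 4 in the shared sequencing run. The ratio of the sum ran from 0.728 to 1.0996 with a run left out and was 0.652 with pooled counts. Between blastocyst and 8-cell it was 0 among families with at least 100 counts, 2 to 3 with a run left out. The ratio of the sum ran from 0.780 to 1.24 with a run left out and was 1.38 with pooled counts. Between blastocyst and oocyte it was 2 to 6. The ratio of the sum ran from 1.49 to 2.80 with a run left out, was 1.43 with size factors and 1.19 in the shared sequencing run, and passed only without blastocyst run 1.2 (2.51). Without 2-cell run 1 the family DNA turned round in the 2-cell to oocyte step (ratio 0.152, from 1 count, and 4.50 without run 2), and without 2-cell run 2 Tigger did so between 8-cell and 2-cell (2.81, and 0.113 without run 1). Tc2 and DNA passed in both blastocyst comparisons under every denominator and every run left out. The rule takes no account of counting error. As shares of all counts, the intervals of their closest blastocyst and 8-cell runs overlapped, and for DNA also those of the closest blastocyst and oocyte runs. The cause of these shifts was not tested. No paired analysis was possible because each stage is 1 sample. Families with a few counts in a run allow no finer statement at this depth.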
